A study of Homo sapiens with 8 samples.

Results

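Potassium channel genes, taken as every gene whose symbol consists of KCN, further letters and a number, were examined in eCLIP peak lists of the RNA-binding proteins PTBP1 and IGF2BP2 from A172 cells, a human glioblastoma line. Symbols of antisense genes were left out. Of 95 such genes in the RefSeq table, 75 carried at least 1 peak, out of 19767 genes with a peak. They held 8739 of the 1843422 peaks. KCNMA1 alone held 3584 of these 8739 peaks and is also given by itself.

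The compared groups were PTBP1 immunoprecipitations (2 libraries) and IGF2BP2 immunoprecipitations (2 libraries), each set by the submitters against an input library taken as 2% of the same lysate. In eCLIP, proteins are crosslinked to the RNA they touch, the RNA is trimmed with RNase, and the fragments that come down with an antibody are sequenced. The labels name no change to the genome of the cells. All had taken up 4-thiouridine at 500 µM for 3 hours and received 365 nm light at 400 mJ per square cm, given 2 times, so the libraries differ in the antibody and in the stretch of membrane cut out, from 55 to 130 kDa for PTBP1 and from 65 to 140 kDa for IGF2BP2. The labels do not say whether the replicates came from separate cultures, so the p-values measure only the spread between these libraries, which may be technical.

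The lists held 600615 and 538802 peaks for PTBP1 and 362700 and 341305 for IGF2BP2. Each peak comes with a log2 ratio of IP over input and a −log10 p-value. The read numbers behind most peaks could be recovered from those 2 values. It could not be done for peaks with a negative log2 ratio as deposited, or with a −log10 p at either end of its range. Medians, sums and limits by reads leave such peaks out. The median peak with recovered reads rested on 12 and 9 IP reads in the PTBP1 libraries and 4 and 4 in the IGF2BP2 libraries. Of the 10 glial and glioma markers looked up, S100B, SOX2 and AQP4 had no peak, and GFAP had 2 and 3 peaks in the PTBP1 libraries and 2 and 0 in the IGF2BP2 libraries. EGFR, VIM and CD44 had peaks in every library. Of the 6 glial and glioma markers tested as described below, 1 was denser in PTBP1 and 2 in IGF2BP2. Over all genes tested, 12.7% were denser in PTBP1 and 12.3% in IGF2BP2. The 7 neuron markers held 366 and 317 peaks in the PTBP1 libraries and 127 and 92 in the IGF2BP2 libraries, and of the 5 tested, 2 were denser in PTBP1 and 0 in IGF2BP2. The 5 epithelial markers held 96 and 90 peaks with PTBP1 and 92 and 64 with IGF2BP2, and the 5 immune markers, with CD3E at 0, held 16 and 9 with PTBP1 and 11 and 8 with IGF2BP2, and none of the 4 and 1 tested genes passed. Whether these go with the differences in the potassium channel genes was not tested.

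Potassium channels let potassium leave the cell and so set its resting voltage and end its electrical signals. The family splits into voltage-gated pores (KCNA to KCNH, KCNQ, KCNS, KCNV), pores opened by calcium or sodium (KCNMA1, KCNN, KCNT), inward rectifiers (KCNJ), tandem-pore leak channels (KCNK) and auxiliary subunits (KCNAB, KCNE, KCNIP, KCNMB). KCNMA1 encodes the pore of BK, the large-conductance channel opened by calcium and voltage, whose transcript is spliced in many forms and which is well known from glioma cells. PTBP1 binds pyrimidine-rich RNA, largely in introns, and represses many neuronal exons. IGF2BP2 binds coding sequences and 3′ UTRs of mature mRNAs and is known to stabilise them.

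The sequences below are PTBP1 peaks in potassium channel genes for which reference sequence was at hand. They lie in the 300-base windows around gene starts of the RefSeq promoter table (GRCh38.p14), read on the minus strand, on which the peaks lie. Capitals mark TCTT and CTTT, short pyrimidine motifs recognised by PTBP1. The KCNMA1 peaks lie in an intron about 18 kb from the gene's 5′ end, in the window of another gene start, that of LOC124902465. Which transcript their reads belong to was not tested. The first 3 KCNMA1 peaks are shown because replicate 2 split into 2 peaks a stretch that was 1 peak in replicate 1. The last KCNMA1 peak and those of KCNMB3 and KCNA7 (the longest of 3 such KCNA7 peaks) are shown because they passed the enrichment thresholds given below in replicate 1. The deposited list labels the KCNA7 peak as 5′ UTR, but it lies just upstream of the RefSeq extent of the gene.
KCNMA1, PTBP1 replicate 1, chr10:77619626-77619731: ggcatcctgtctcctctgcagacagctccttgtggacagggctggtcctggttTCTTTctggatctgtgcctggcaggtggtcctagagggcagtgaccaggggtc
KCNMA1, PTBP1 replicate 2, chr10:77619632-77619688: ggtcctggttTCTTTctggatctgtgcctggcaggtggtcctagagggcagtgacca
KCNMA1, PTBP1 replicate 2, chr10:77619689-77619731: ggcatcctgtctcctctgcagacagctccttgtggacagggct
KCNMA1, PTBP1 replicate 1, chr10:77619763-77619786: cttccatcctgggtggggagcagc
KCNMB3, PTBP1 replicate 1, chr3:179259854-179259901: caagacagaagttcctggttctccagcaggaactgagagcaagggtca
KCNA7, 5′ UTR, PTBP1 replicate 1, chr19:49072739-49072764: agtgccccctccctcgcgccctagcc

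The peak of 106 bases in KCNMA1 rested on 153 IP reads and 25 input reads in PTBP1 replicate 1, a log2 enrichment of 2.31. In replicate 2 the peak of 57 bases, towards the 3′ side, held 116 IP reads and 16 input reads (log2 2.78), and the 43 bases on the 5′ side held 48 IP reads and 1 input read (log2 5.51). The motif match sat in the peak of lower enrichment. When a piece of the same length was taken at the same offset from each of 35116 promoter windows, TCTT occurred in 28.9% of the pieces and CTTT in 34.4% on the same strand (48.4% and 56.0% on either strand). The longer CTTTCT, which overlaps the capitals, also occurred once in the 106 bases and in 4.18% of the pieces (8.31% on either strand). The nearby 24-base peak had 45 IP reads and 2 input reads (log2 4.19) and no TCTT or CTTT. Neither motif was found in the KCNMB3 and KCNA7 sequences on the strand of the peak, and TCTT occurred once on the opposite strand of the KCNMB3 peak. The share of pyrimidines was 39.6% in the KCNMB3 peak and 73.1% in the KCNA7 peak, against a median of 50.0% over all promoter pieces of each length and place. The other enriched KCNA7 peaks of PTBP1 replicate 1 in this window, of 17 and 21 bases, had 58.8% and 71.4%. None of the PTBP1 replicate 2 peaks in the KCNA7 window passed the thresholds, and the peak of that replicate over the same bases had 68.3% pyrimidines, 482 IP reads and 82 input reads (log2 2.48).

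Peaks were very unevenly spread over the genes. KCNMA1, KCNH1, KCNQ5 and KCNQ1 together held 67.5% and 66.8% of the KCN peaks in the PTBP1 libraries and 70.5% and 69.9% in the IGF2BP2 libraries. KCNMA1 had 1108 and 1080 peaks with PTBP1 and 699 and 697 with IGF2BP2, which placed it 2nd and 2nd among the 19767 genes in the PTBP1 lists and 6th and 7th in the IGF2BP2 lists. Of the 75 genes, 46 had a peak in every library, and 21 genes had fewer than 10 peaks in all 4 libraries together.

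**Figure D1:**
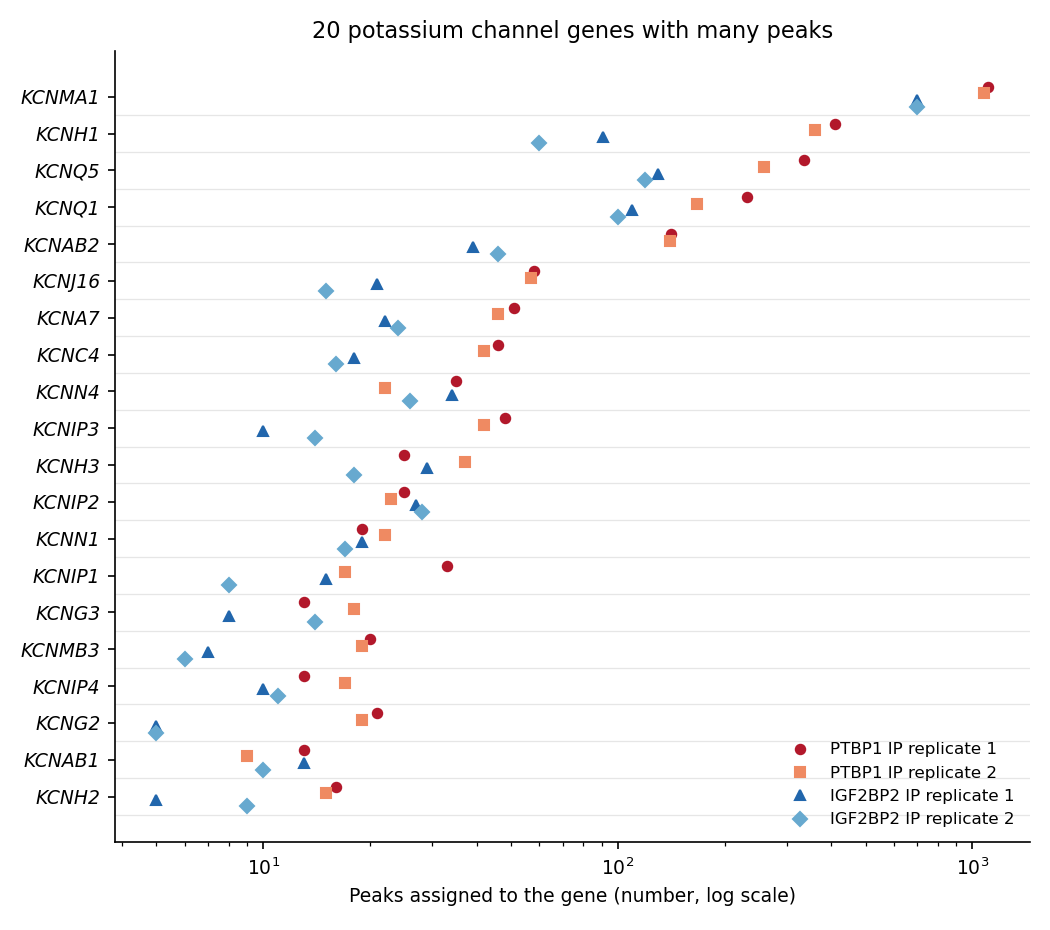
Number of peaks (log scale) of 20 potassium channel genes with many peaks, with 1 point for each library. KCNMA1, at 1108 and 1080 peaks with PTBP1 and 699 and 697 with IGF2BP2, lies apart from the rest, and in KCNN4 and KCNH3 the points of both proteins fall among each other.

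KCN genes made up a larger share of the PTBP1 lists, with 0.516 ± 0.0034% of all peaks, than of the IGF2BP2 lists, with 0.406 ± 0.0044% (SD, n = 2 each). The share of KCNMA1 alone was 0.184% and 0.200% in the PTBP1 libraries and 0.193% and 0.204% in the IGF2BP2 libraries, and these ranges overlap. Without KCNMA1 the other genes made up 0.324 ± 0.0079% of the PTBP1 lists and 0.208 ± 0.0037% of the IGF2BP2 lists (SD, n = 2 each). With 2 libraries a group, an exact permutation test cannot give a p below 0.333.

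Peak density, the number of peaks in a gene per 10000 peaks of the list on a log2 scale, was compared in limma over the 15145 genes with at least 10 peaks. Of the 54 KCN genes tested, 14 were denser in PTBP1 and 3 were denser in IGF2BP2 at a Benjamini-Hochberg adjusted p under 0.05, where the background over all genes was 12.7% denser in PTBP1 and 12.3% denser in IGF2BP2. The median difference of PTBP1 minus IGF2BP2 was 0.46 on the log2 scale over the 54 KCN genes and −0.01 over all genes tested. Values above 0 were found in 34 of the 54 KCN genes (63.0%) and in 49.4% of all genes. Leaving out PTBP1 replicate 2 left 8 KCN genes denser in PTBP1 and 1 denser in IGF2BP2, against 8.06% and 8.27% of all genes. Leaving out IGF2BP2 replicate 2 left 20 denser in PTBP1 and 6 in IGF2BP2, against 21.5% and 18.7% of all genes. When only the best 25% of each list was used, 16 KCN genes could be tested, of which 5 were denser in PTBP1 and 2 in IGF2BP2, against 16.3% and 16.9% of all genes. Among peaks of at least 10 IP reads, 7 of 14 KCN genes were denser in PTBP1 and 0 in IGF2BP2, against 34.3% and 16.1% of all genes.

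**Figure D2:**
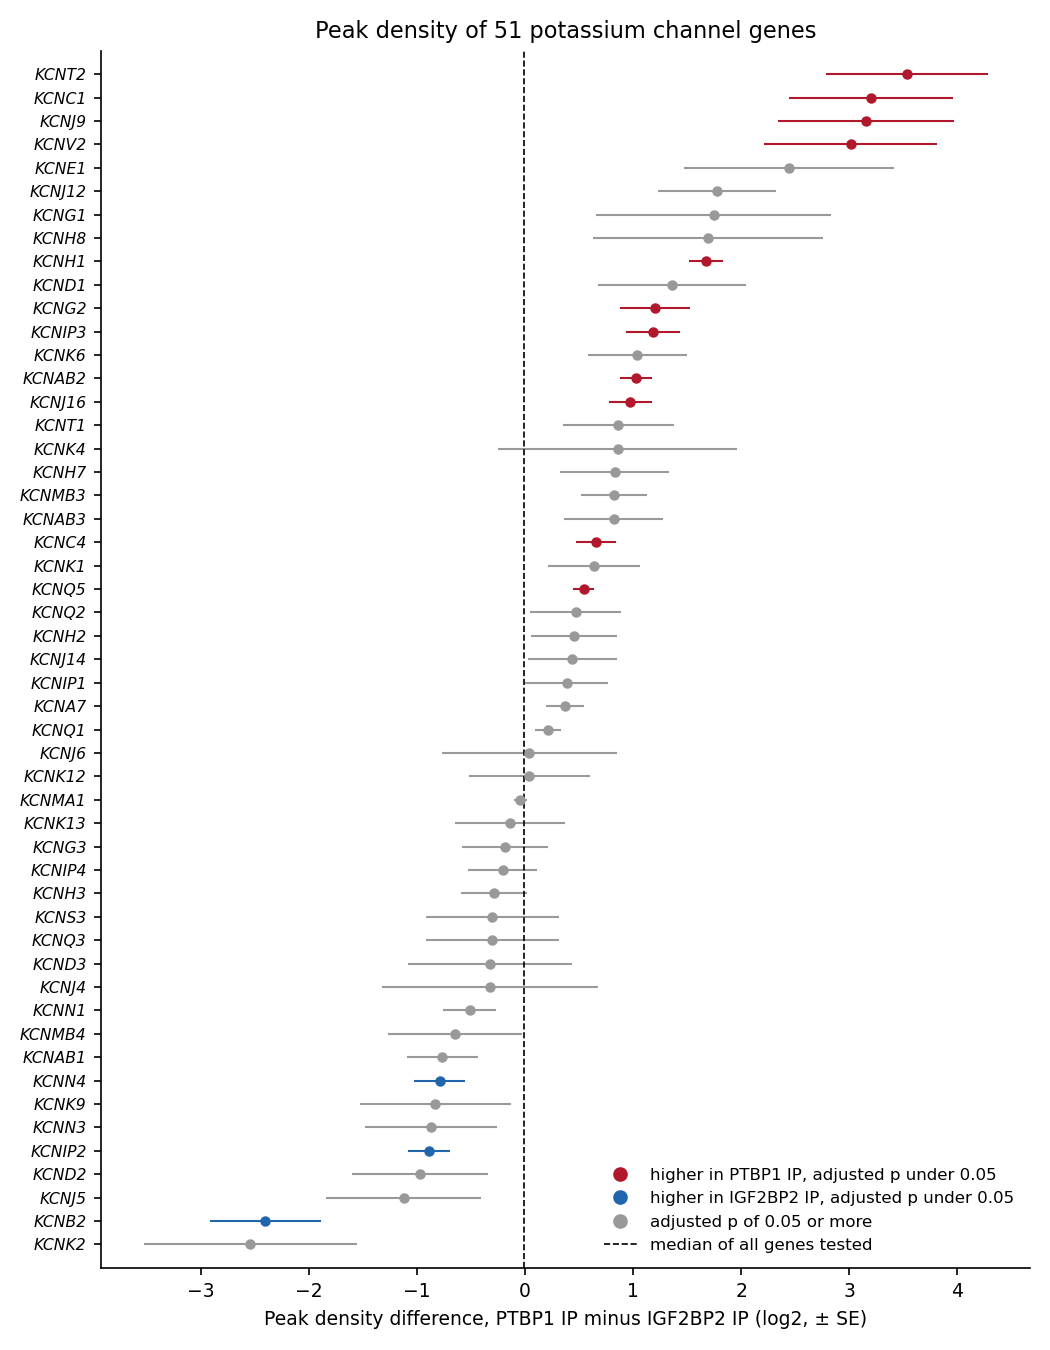
Difference in peak density, PTBP1 IP minus IGF2BP2 IP, on the log2 scale with its SE, for 51 of the 54 potassium channel genes tested in limma. Most coloured points lie to the right of the dashed line, the median of all genes at −0.01, with 11 of the plotted genes denser in PTBP1 and 3 denser in IGF2BP2, while KCNMA1 lies on it at −0.05.

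Among the voltage-gated pores, 9 of 24 tested genes were denser in PTBP1 and 1 in IGF2BP2, against 12.7% and 12.3% of all genes. KCNH1, a slowly activating voltage-gated channel of the EAG type that is known in tumours, had 409 and 361 peaks with PTBP1 and 91 and 60 with IGF2BP2. The PTBP1 values lay far above the IGF2BP2 values, and the density difference was 1.68 ± 0.16 on the log2 scale (SE, adjusted p = 0.0016). It passed the test in all 12 alternative settings, with values from 1.42 to 4.00. KCNQ5, a subunit of the M-type current that damps neuronal firing, had 334 and 258 peaks with PTBP1 and 130 and 119 with IGF2BP2, a smaller difference of 0.54 ± 0.10 (SE, adjusted p = 0.0098) that also passed in all 12 settings.

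KCNB2, a delayed rectifier of neurons, was the member with the largest call in the other direction, with 2 and 4 peaks in the PTBP1 libraries and 11 and 10 in the IGF2BP2 libraries. The groups did not overlap, and the difference was −2.41 ± 0.51 (SE, adjusted p = 0.017), on small numbers and lost without PTBP1 replicate 1 (adjusted p = 0.078). KCNC4, a fast delayed rectifier, had 46 and 42 peaks with PTBP1 and 18 and 16 with IGF2BP2, which differed by 0.65 ± 0.19 (SE, adjusted p = 0.042), and the call was lost in 4 of 12 settings. KCNH3, a brain channel of the ELK type, had 25 and 37 peaks with PTBP1 and 29 and 18 with IGF2BP2 and did not pass (−0.29 ± 0.31 SE, adjusted p = 0.52).

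KCNG2, which encodes a silent subunit that modifies other voltage-gated channels, had 21 and 19 peaks with PTBP1 and 5 and 5 with IGF2BP2 (1.20 ± 0.32 SE, adjusted p = 0.035). Both PTBP1 libraries lay above either IGF2BP2 library, but the call was lost without either PTBP1 replicate (adjusted p = 0.28 each).

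A few called genes had almost no IGF2BP2 peaks. KCNV2, another modifying subunit, had 9 and 4 peaks with PTBP1 and 0 and 0 with IGF2BP2, which is at least 2.68-fold higher in PTBP1 when the IGF2BP2 lists are set to a limit of 3 peaks over both libraries. On the same limit the sodium-activated channel KCNT2, at 13 and 6 PTBP1 peaks and 0 and 0 IGF2BP2 peaks, was at least 3.91-fold higher, and the G-protein-gated inward rectifier KCNJ9, at 11 and 4 PTBP1 peaks and 0 and 0 IGF2BP2 peaks, at least 3.09-fold higher. KCNC1 had 9 and 17 peaks with PTBP1 and 1 and 0 with IGF2BP2, a ratio of 16.1 after scaling by list size (exact 95% interval 2.64 to 659, for counting error only). Its call was lost without PTBP1 replicate 2 (adjusted p = 0.065). The median peak of these 4 genes held 3 to 7 IP reads in the PTBP1 libraries.

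Among the auxiliary subunits, 2 of 10 tested genes were denser in PTBP1 and 1 in IGF2BP2, near the 12.7% and 12.3% of all genes. KCNAB2, a cytoplasmic beta subunit of voltage-gated channels, had 141 and 140 peaks with PTBP1 and 39 and 46 with IGF2BP2 (1.02 ± 0.15 SE, adjusted p = 0.0045), although the value among the best 25% of peaks was −0.45 with an adjusted p of 0.37 (1.92e-07 to 0.417 over the 12 settings). The calcium sensors that attach to Kv4 channels went different ways. KCNIP3, also known as a transcriptional repressor, had 48 and 42 peaks with PTBP1 and 10 and 14 with IGF2BP2 (1.19 ± 0.25 SE, adjusted p = 0.016). KCNIP2, the main such subunit of the heart, had 25 and 23 peaks with PTBP1 and 27 and 28 with IGF2BP2, which after scaling to the longer PTBP1 lists was a difference of −0.89 ± 0.19 (SE, adjusted p = 0.019). This call was lost without PTBP1 replicate 1 (adjusted p = 0.070), without PTBP1 replicate 2 (adjusted p = 0.057) and among peaks of at least 10 IP reads, where the value was −0.09 (adjusted p = 0.95, with 0.0018 to 0.95 over the 12 settings). The KCNIP3 call was lost without PTBP1 replicate 1 (adjusted p = 0.058). KCNIP1 and KCNIP4 did not pass the test, at 0.38 ± 0.38 and −0.21 ± 0.32 (SE).

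Among the pores opened by calcium or sodium, 1 of 6 tested genes, KCNT2, was denser in PTBP1 and 1, KCNN4, was denser in IGF2BP2. This is near the shares over all genes, 12.7% and 12.3%. KCNN4, the intermediate-conductance calcium-activated channel that is known from migrating glioma cells, had 35 and 22 peaks with PTBP1 and 34 and 26 with IGF2BP2. Its raw numbers overlapped, and the call, −0.79 ± 0.24 on the log2 scale (SE, adjusted p = 0.049), is relative to the length of the lists and was lost in 5 of 12 settings. KCNN1 and KCNN3, small-conductance channels, gave −0.51 ± 0.24 and −0.87 ± 0.61 (SE) without passing the test.

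KCNMA1 itself did not pass the test. Its density difference was −0.05 ± 0.06 on the log2 scale (SE, adjusted p = 0.611). The value moved with the choice of peaks, to 0.48 ± 0.08 among the best 25% of peaks (adjusted p = 0.0083) and to 0.33 ± 0.12 among peaks of at least 10 IP reads (adjusted p = 0.071), and its sign also turned under another scaling, at 0.04, and without PTBP1 replicate 1, at 0.01. Among peaks of at least 10 IP reads the median of all genes was itself at 0.65, so KCNMA1 lay below it. Over the 12 settings its adjusted p ran between 0.0083 and 0.97.

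Of 7 tested inward rectifiers, 2, KCNJ9 and KCNJ16, were denser in PTBP1 and 0 in IGF2BP2, against 12.7% and 12.3% of all genes. KCNJ16, which forms channels of kidney and glia with other subunits, had 58 and 57 peaks with PTBP1 and 21 and 15 with IGF2BP2 (0.97 ± 0.20 SE, adjusted p = 0.015). Of its peaks, 89.4% were mirrored, that is overlapped by a peak of the same list on the opposite strand, and without mirrored peaks the value was −0.68 with an adjusted p of 0.40 (4.24e-05 to 0.398 over the 12 settings). Among the best 25% of peaks it was −1.49, and without PTBP1 replicate 2 it missed the threshold (adjusted p = 0.063). KCNJ12, whose reads can be shared with its near-identical copy KCNJ18, had 13 and 8 peaks with PTBP1 and 2 and 1 with IGF2BP2 and did not pass the test (adjusted p = 0.054). None of the 7 tandem-pore genes passed, and their median difference was 0.04. Among them KCNK2, a stretch-sensitive leak channel, had 3 and 0 PTBP1 peaks and 6 and 3 IGF2BP2 peaks (−2.54 ± 0.99 SE, adjusted p = 0.10).

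The other channel genes looked up gave mixed results. Over all genes tested, 12.7% were denser in PTBP1 and 12.3% in IGF2BP2, and these lists are too short to set against those shares. Of the 10 pores of voltage-gated calcium channels, 7 were tested, of which 1 was denser in PTBP1 and 1 in IGF2BP2. CACNA1C, the L-type pore, had 507 and 461 peaks with PTBP1 and 123 and 119 with IGF2BP2, whereas CACNA1H, a T-type pore, had 154 and 158 peaks with PTBP1 and 195 and 200 with IGF2BP2. Of the 8 auxiliary calcium channel subunits, 2 were denser in PTBP1 and 0 in IGF2BP2. Of the 4 sodium channel pores tested, 0 passed in either direction, with 0.32 as their median difference. Of the 4 HCN channels 0 were denser in PTBP1 and 1 in IGF2BP2, and of the 6 calcium release channels 2 were denser in PTBP1 and 1 in IGF2BP2. The BK gamma subunits LRRC52 and LRRC55 had no peak, and of the Kv4 partners DPP6 and DPP10, which were tested, 0 were denser in PTBP1 and 1, DPP10, in IGF2BP2 (17 and 12 peaks with PTBP1 and 16 and 21 with IGF2BP2).

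Most KCN peaks lay in introns. The share outside introns was 7.74% and 8.23% of KCN peaks in the PTBP1 libraries and 8.14% and 7.30% in the IGF2BP2 libraries, which overlapped (mean difference 0.27 percentage points, two-sided exact permutation test, p = 0.667, with 0.333 the smallest p possible). Over all genes the share was 21.6 ± 0.39% with PTBP1 and 21.2 ± 0.26% with IGF2BP2 (SD, n = 2 each). Without KCNMA1 the KCN share was 12.3 ± 0.90% with PTBP1 and 14.3 ± 0.39% with IGF2BP2 (SD, n = 2 each).

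Coding sequence held 4.11 ± 0.29% of KCN peaks with PTBP1 and 3.21 ± 0.19% with IGF2BP2, and 3′ UTRs held 2.69 ± 0.55% with PTBP1 and 3.46 ± 0.33% with IGF2BP2 (SD, n = 2 each). In both classes the libraries of the proteins did not overlap, which is the smallest exact p of 0.333. Over all genes the differences ran the same way, with wider gaps and the same exact p. There coding sequence held 14.2 ± 0.20% with PTBP1 and 9.74 ± 0.05% with IGF2BP2. The 3′ UTRs held 3.41 ± 0.11% with PTBP1 and 7.09 ± 0.15% with IGF2BP2 (SD, n = 2 each). KCNMA1 had 8 and 8 peaks outside introns with PTBP1 and 8 and 4 with IGF2BP2, and none in a 3′ UTR in any of the 4 lists. Outside introns lay 0.781% of all KCNMA1 peaks, 11.0% of those of KCNH1, 33.3% of those of KCNN4 and 74.1% of those of KCNA7.

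KCNA7, a muscle-type Shaker channel whose gene is 5.3 kb long, stood out by reads rather than by number of peaks. In its 51 and 46 PTBP1 peaks, 14877 and 12861 IP reads were recovered. This was 18.8% and 24.1% of the IP reads recovered in KCN peaks and second to KCNMA1. In its 22 and 24 IGF2BP2 peaks, 232 and 216 IP reads were recovered, which was 3.08% and 3.07%. Peaks without recovered reads, such as those with a negative ratio, are missing from these sums. The median log2 ratio of its peaks was 1.97 and 1.81 with PTBP1 and 0.32 and 0.10 with IGF2BP2. The sums may therefore leave out more with IGF2BP2, so the contrast in reads may be too large. The median KCNA7 peak with recovered reads had 313 and 253 IP reads over 63 and 73 input reads with PTBP1. With IGF2BP2 it had 20 and 14 IP reads over 38.5 and 22 input reads. Coding sequence held 22 and 22 of its PTBP1 peaks and 8 and 9 of its IGF2BP2 peaks. Input reads were thus also many over this gene, and of the 19 KCN peaks outside the RefSeq extent of their gene, most lay beside KCNA7.

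Peaks of KCN genes came back in the other replicate, by an overlap of at least 1 nucleotide on the same strand, in 60.1% and 65.7% of cases with PTBP1 and 50.8% and 52.8% with IGF2BP2. Over all genes the background was 56% and 61.9% with PTBP1 and 48.4% and 51.8% with IGF2BP2. For KCNMA1 the shares were 81.9% and 83.3% with PTBP1 and 59.5% and 60% with IGF2BP2, and for the remaining KCN genes 47.9% and 54.6% with PTBP1 and 42.9% and 45.6% with IGF2BP2. KCNMA1 lay above the background in every library, and the share over the pooled peaks of the other members lay below it. Single members lay on either side of the background. KCNA7 was above it, at 94.1% and 93.5% with PTBP1 and 86.4% and 83.3% with IGF2BP2. KCNAB2 was below it, at 35.5% and 35.7% with PTBP1 and 35.9% and 34.8% with IGF2BP2. The median KCNMA1 peak held 30 and 21 IP reads with PTBP1 and 5 and 4 with IGF2BP2, while that of the other KCN genes held 7 and 5 with PTBP1 and 4 and 4 with IGF2BP2. The part of read depth in these shares was not tested.

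**Figure D3:**
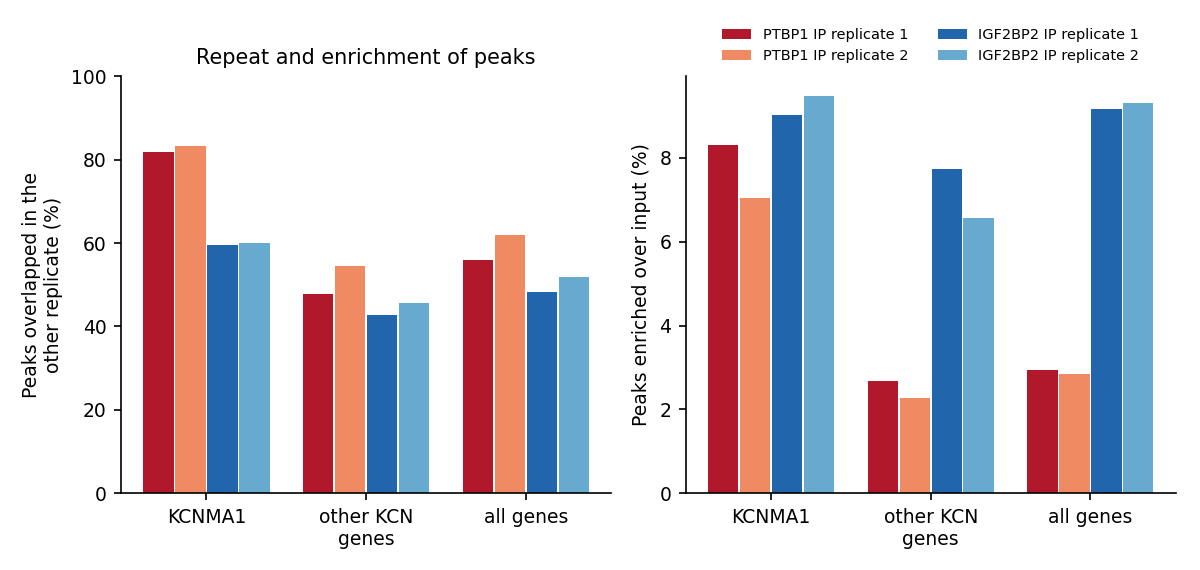
Left, percent of peaks overlapped by a peak of the other replicate of the same protein. Right, percent of peaks enriched over input. Bars are single libraries, with KCNMA1, the other KCN genes and all genes side by side. In the right panel KCNMA1 reaches 8.30% and 7.04% with PTBP1, where all genes are at 2.95% and 2.85%, while with IGF2BP2 its bars are near those of all genes.

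A peak was called enriched when its log2 ratio over input and its −log10 p were both at least 3 after the constant that each chromosome carries in the deposited ratios had been evened out. Enriched peaks made up 8.30% (95% Wilson interval 6.82 to 10.1) and 7.04% (5.66 to 8.72) of KCNMA1 peaks with PTBP1, against a background of 2.95% and 2.85% of the peaks of all genes. With IGF2BP2 the shares were 9.01% (7.11 to 11.4) and 9.47% (7.51 to 11.9), against 9.16% and 9.32% of the peaks of all genes. The intervals cover counting error only. The other KCN genes were at 2.68% and 2.28% with PTBP1 and 7.73% and 6.57% with IGF2BP2.

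Among peaks of at least 10 IP reads, 12.8% and 12.2% of KCNMA1 peaks were enriched with PTBP1, where all genes were at 6.76% and 7.17%. With IGF2BP2 the values were 16.7% and 22.1% for KCNMA1 and 24.4% and 25.6% for all genes. This limit also drops peaks with a negative ratio, whose reads were not recovered, so it is not a limit on read depth alone. With PTBP1, reads were recovered for 73.5% and 72.1% of KCNMA1 peaks and for 73.4% and 76.1% of the peaks of all genes. With IGF2BP2 these shares were 84.4% and 83.6% for KCNMA1 and 87.7% and 88.4% for all genes. On the ratios as deposited KCNMA1 was at 5.32% and 4.63% with PTBP1 and all genes at 5.93% and 5.96%, so that the excess over the background depends on the chromosome constants. The constant of chromosome 10 was −0.65 and −0.41 in the PTBP1 lists, where the medians over the chromosomes were −0.30 and −0.08. It was 1.57 and 1.73 in the IGF2BP2 lists, where the medians were 1.74 and 1.90.

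Overlapping peaks of both replicates were joined into reproducible regions, and a region was called enriched when it held an enriched peak of each replicate. KCN genes had 1701 reproducible PTBP1 regions in 51 genes and 688 reproducible IGF2BP2 regions in 44 genes, with 36 genes in common. Of these, 59 PTBP1 regions (3.47%, background 2.32%) and 35 IGF2BP2 regions (5.09%, background 5.91%) were enriched. They fell in 7 of the 51 genes with PTBP1 (13.7%, background 17.7%) and in 7 of the 44 genes with IGF2BP2 (15.9%, background 27.9%). Some regions touched or lay on both strands of one place, and counted once per place they made 50 PTBP1 sites and 29 IGF2BP2 sites.

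KCNMA1 held 39 of the 59 PTBP1 regions and 23 of the 35 IGF2BP2 regions, all in introns. Without it, 20 of 881 PTBP1 regions (2.27%) and 12 of 301 IGF2BP2 regions (3.99%) were enriched. The PTBP1 regions of KCNMA1 rested on a median of 42 and 34 IP reads and the IGF2BP2 regions on 9 and 9. The best PTBP1 region of KCNMA1, of 178 bases at 130 kb from the 5′ end, had 73 IP reads to 2 input reads in replicate 1 and 35 to 1 in replicate 2 (log2 4.89 and 5.05), and no IGF2BP2 peak lay there. The best IGF2BP2 region, of 56 bases at 234 kb, had 13 IP reads to 1 input read in replicate 1 and 18 to 2 in replicate 2 (log2 5.44 and 5.07), and no PTBP1 peak lay there.

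Regions of both proteins overlapped on KCNMA1. Of its 820 PTBP1 regions, 34.0% overlapped an IGF2BP2 region, where the value over all genes was 20%. Of its 387 IGF2BP2 regions, 74.4% overlapped a PTBP1 region, where the value over all genes was 39.8%. KCNMA1 had more regions of both proteins than any other gene of like length, and the part of this in the overlaps was not tested. Of its enriched regions, 6 of 39 with PTBP1 (15.4%, 14.7% over all genes) overlapped an IGF2BP2 region, and 13 of 23 with IGF2BP2 (56.5%, 27.9% over all genes) overlapped a PTBP1 region. An enriched region of the other protein was overlapped by 1 of 39 with PTBP1 (2.56%, 2.62% over all genes) and by 1 of 23 with IGF2BP2 (4.35%, 2.06% over all genes), which is too few to compare.

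Along KCNMA1 (chr10:76869602-77637808, minus strand, 768 kb) the peaks of both proteins crowded towards the 5′ end. The 5′ part up to the middle of the gene held 78.9% and 79.4% of PTBP1 peaks and 83.7% and 82.4% of IGF2BP2 peaks. Over the 41 genes within 20% of its length that had a known strand and at least 20 peaks in every library, the median share was 56.8% and 54.5% with PTBP1 and 60% and 59.1% with IGF2BP2. KCNMA1 was 4th and 6th of the 41 genes with PTBP1 and 5th and 6th with IGF2BP2. In KCNH1 the same part held 37.9% and 41.3% of PTBP1 peaks and 37.4% and 40% of IGF2BP2 peaks. In KCNQ5 it held 58.7% and 58.5% of PTBP1 peaks and 80% and 74.8% of IGF2BP2 peaks.

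The stretch from 250 to 300 kb was the fullest with PTBP1, with 15.5% and 14.5% of the PTBP1 peaks, and it had 14.7% and 12.8% of the IGF2BP2 peaks. In it, 28 and 24 peaks were enriched with PTBP1 and 11 and 11 with IGF2BP2. It held 12 of the 39 enriched PTBP1 regions, and 5 of the 23 enriched IGF2BP2 regions. The first 50 kb held more of the enriched IGF2BP2 regions, with 8 of 23, and 4 of the 39 enriched PTBP1 regions. From 650 kb on, PTBP1 had 31 and 25 peaks in all and 0 enriched regions. With IGF2BP2, the stretch from 700 to 750 kb held 0 enriched peaks in replicate 1 and 8 in replicate 2.

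**Figure D4:**
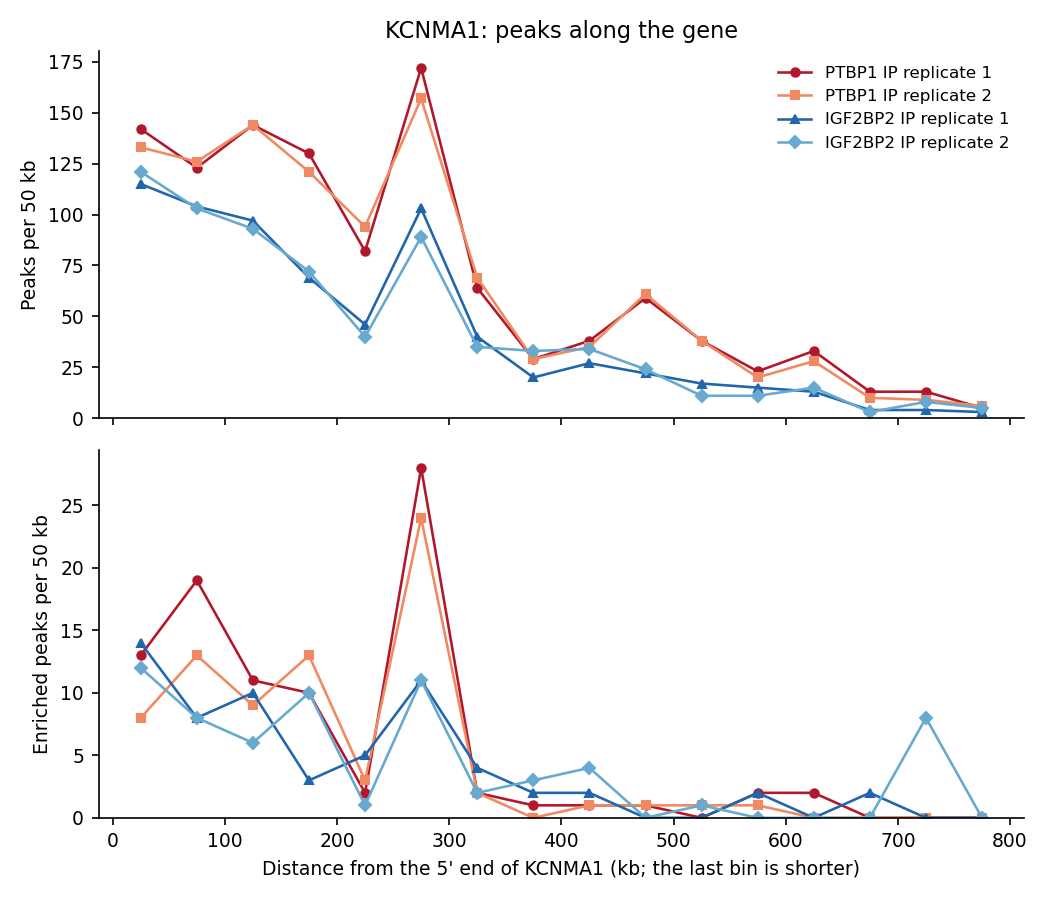
Peaks (top) and enriched peaks (bottom) of KCNMA1 per 50 kb, by distance from the 5′ end of the gene, with 1 line for each library. Fewer peaks lie beyond 300 kb in every library, the enriched PTBP1 peaks reach 28 and 24 between 250 and 300 kb, and the 8 enriched peaks at 700 to 750 kb belong to IGF2BP2 replicate 2 alone.

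KCNMA1 had more reproducible regions than any other gene of like length. Of 125 genes within 20% of its length, it ranked first for both proteins, with 820 PTBP1 regions and 387 IGF2BP2 regions, where the median of the 125 genes was 14 PTBP1 regions and 5 IGF2BP2 regions. Next came the cadherin gene CDH4 with 561 PTBP1 regions and 235 IGF2BP2 regions, and the glutamate receptor gene GRID1 with 558 PTBP1 regions and 155 IGF2BP2 regions. AGAP1, a GTPase-activating gene, had 544 PTBP1 regions and 194 IGF2BP2 regions. NAV2, a neuron navigator gene, had 399 PTBP1 regions and 103 IGF2BP2 regions, and the trafficking gene TRAPPC9 had 349 PTBP1 regions and 88 IGF2BP2 regions. These 5 genes had 0 to 8 enriched PTBP1 regions and 3 to 18 enriched IGF2BP2 regions each, where KCNMA1 had 39 with PTBP1 and 23 with IGF2BP2. PDE1C, a phosphodiesterase gene further down the order that was chosen after its values were seen, had 18 enriched PTBP1 regions among only 250. Across the 75 KCN genes the rank correlation of gene length and number of peaks was 0.19 and 0.20 with PTBP1 and 0.38 and 0.28 with IGF2BP2 (n = 75), which is a description across genes of the same 4 libraries. Over 19000 genes with peaks it was 0.44 and 0.41 with PTBP1 and 0.34 and 0.33 with IGF2BP2. RNA levels were not measured apart from the input, so a gene with much RNA and a gene with many bound places cannot be told apart by numbers of peaks.

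On the strand opposite to KCNMA1 lay 6.77% and 6.02% of its PTBP1 peaks and 5.29% and 4.30% of its IGF2BP2 peaks. Most of them mirrored a peak on the gene's own strand, 81.3% and 83.1% with PTBP1 and 75.7% and 76.7% with IGF2BP2. Over all genes of known strand, 8.0% and 8.08% of PTBP1 peaks and 7.88% and 7.88% of IGF2BP2 peaks lay on the opposite strand. Of the enriched regions, 4 of 39 with PTBP1 and 2 of 23 with IGF2BP2 were on the opposite strand.

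Next to KCNMA1, KCNQ1 had 8 enriched PTBP1 regions and KCNQ5 had 6, but counted once per place on either strand KCNQ1 had 4 and KCNQ5 still 6. KCNQ1 encodes the slow delayed rectifier of the heart, and the long non-coding RNA KCNQ1OT1 is transcribed from the opposite strand within it. The gene had 232 and 167 peaks with PTBP1 and 110 and 100 with IGF2BP2, without a call (0.21 ± 0.12 SE, adjusted p = 0.24). Its 8 enriched PTBP1 regions were 4 places, each found on both strands, and all of its 15 and 11 enriched PTBP1 peaks lay within the KCNQ1OT1 extent (chr11:2608328-2699994). With IGF2BP2, 0 and 2 of its 7 and 7 enriched peaks lay there. Which of these transcripts the mirrored peaks belong to cannot be told from the lists.

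KCNQ5 had 6 enriched PTBP1 regions, all in introns and between 32.1 and 89.6 kb from its start, of which the best had 76 IP reads to 2 input reads and 47 to 2 (log2 4.95 and 4.48). Its 4 enriched IGF2BP2 regions included 1 of 34 bases in the 3′ UTR (chr6:73197121-73197154), with 14 IP reads to 2 input reads and 6 to 1 (log2 4.55 and 4.49), where no PTBP1 peak lay. KCNH7, of the ERG type, had 8 and 8 peaks with PTBP1 and 2 and 3 with IGF2BP2. It held 1 enriched intronic PTBP1 region of 124 bases (chr2:162471109-162471232), with 90 IP reads to 1 input read and 64 to 3 (log2 6.19 and 4.34), the highest log2 ratio in replicate 1 of any enriched KCN region.

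The rest of the enriched PTBP1 regions were 2 in introns of KCNH1, 2 in the 3′ UTR of KCNA7 and 1 in an intron of KCNMB3, an auxiliary subunit of BK whose sequence is printed above. That KCNMB3 region had 35 IP reads to 1 input read and 20 to 2 (log2 4.83 and 3.25). With IGF2BP2, a coding-sequence region was enriched in KCNH2, the ERG channel of the heart. The KCNH2 region (chr7:150951017-150951045) had 8 IP reads to 2 input reads and 9 to 1 (log2 3.74 and 5.07). KCNQ1 had 3 enriched IGF2BP2 regions, of which 2 lay side by side, KCNB2 2 that touched each other, and KCNC4 1. Outside KCNMA1 the IGF2BP2 calls rested on 6 to 14 IP reads and 1 to 4 input reads.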

How the data were processed

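Peak lists of 4 IP libraries from A172 cells were used. The 4 input libraries enter through the ratios, and their reads were not used here. Per the submitters' processing notes, reads were aligned with HISAT2 to hg38. The sources used here name no peak caller, annotation or filter. The authors deposited for each peak a −log10 p-value and, in a column headed Count, values that proved to be a log2 ratio of IP over input plus a constant for each chromosome, which was read from the values (the commonest ratio being 3 IP reads to 1 input read). Eligible for recovery of reads were peaks with a deposited log2 ratio that was not negative and a −log10 p that was positive and under 400. These were 446432, 416755, 319796 and 303376 peaks in PTBP1 replicates 1 and 2 and IGF2BP2 replicates 1 and 2. Reads recovered within 1% from both values covered 98.7%, 98.4%, 99.6% and 99.6% of these eligible peaks, in the same order. An input of 1 read may include 0 set to 1, on which the labels are silent. Ratios were put on a common scale by replacing each chromosome's constant with the median constant. Enriched means log2 and recomputed −log10 p both at least 3. The deposited −log10 p ends at 400.

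Density was log2 of (peaks + 0.5) per 10000 list peaks, tested with limma 3.58.1 in R 4.3.3 over genes with at least 10 peaks, with Benjamini-Hochberg adjustment at 0.05. In a single simulated table of 15081 genes, 65.3% of 199 genes changed 4-fold were recovered, and 2.26% of calls were false. Its spread between libraries was chosen, not estimated from these lists, and far fewer genes were changed than were called here. These rates therefore need not hold for the real calls. Shares were compared with exact permutation tests, and intervals are Wilson 95%. The labels, not the lists, gave each library its group. Gene strand and extent, known for 55 members, and sequences come from RefSeq (GRCh38.p14). KCN peaks on chromosome 8 were left out of the sequence search. Of the remaining 8667 peaks, 68 in 12 genes lay inside a sequence window, and no sequence was used for the other peaks. The motifs searched, on both strands, were TCTT and CTTT, which overlap one another, the longer TTTCT and also CTTTCT, which contains CTTT, and, for IGF2BP2, CATT as well as CATC, the repeat ACACAC and lastly GGACT. Genes were named by rule: KCNMA1, those called with up to 10 in each direction, the 10 with most reproducible and enriched regions of each protein, and the 5 next genes of like length. KCNJ12, KCNK2, KCNIP1, KCNIP4, KCNN1, KCNN3 and the listed non-members were named after their values were seen. Some genes that the rule selects are counted but not reported here by name. The members and lists were chosen with earlier results of these data known.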

Additional observations from a re-analysis of the deposited data

How the results depend on the processing

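KCNH1, KCNQ5, KCNT2 and KCNJ9 kept their calls in every setting in which they could be tested. For KCNH1 and KCNQ5 these were 12 settings. For KCNT2 and KCNJ9 they were 10, without the best 25% of peaks and the limit of 10 IP reads. KCNT2 and KCNJ9 had 0 IGF2BP2 peaks, so they reached the limit of 10 peaks through PTBP1 alone. The counts of KCN genes denser in PTBP1 and in IGF2BP2, 14 and 3, were 5 and 2 in the best 25% of peaks (16.3% and 16.9% of all genes), and 7 and 0 among peaks of at least 10 IP reads, where 14 KCN genes could be tested (34.3% and 16.1% of all genes). Leaving out 1 library gave 8 to 20 and 1 to 6, with the lone library assumed to vary like the others. Over all genes, too, fewer passed without a PTBP1 replicate and more without an IGF2BP2 replicate. These ranges are therefore not particular to KCN genes. KCNMA1 turned to 0.042 with TMM scaling, 0.48 and 0.33 under those 2 peak filters, and ran between −0.11 and 0.015 with 1 library left out. KCNAB2 (−0.45) and KCNJ16 (−1.49) reversed in the best 25%, and KCNJ16 (−0.68) without mirrored peaks. The cause was not tested. Same-numbered replicates were not linked (r = −0.0016, 2 pairs). With the replicate block the KCN counts were 16 and 4, against 2472 and 2291 of all 15145 genes tested.

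The KCN share of peaks with PTBP1 and IGF2BP2 was 0.538% and 0.345% in the best 25%, 0.530% and 0.311% at 10 reads, 0.324% and 0.208% without KCNMA1, and 0.577% and 0.427% by nucleotides. Peaks found again, 62.9% with PTBP1 and 51.8% with IGF2BP2, were 55.4% and 47.7% at an overlap of 50%, and 51.2% and 44.2% without KCNMA1. Enriched peaks, 4.41% with PTBP1 and 8.18% with IGF2BP2, were 5.35% and 7.72% as deposited, 1.61% and 2.45% with both limits at 4, and 10.7% and 21.3% at 10 reads. KCNMA1 had 25 enriched PTBP1 regions as deposited, and 8 with PTBP1 and 5 with IGF2BP2 at limits of 4, where 4 genes with PTBP1 and 3 with IGF2BP2 held one. The difference outside introns was −0.76 points at 10 reads, −0.45 by nucleotides, −1.96 without KCNMA1, and −0.39 to 0.93 with 1 replicate left out. Peaks of IGF2BP2 rest on a median of 4 IP reads, which limits its enrichment calls.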
